A study of Drosophila melanogaster with 2 samples.

Results

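Binding of the Drosophila protein CG13287 was examined at 10 nuclear genes that copy, package and transcribe the mitochondrial genome, namely mtSSB, PolG1, PolG2, mtDNA-helicase, TFAM, PolrMT, mtTFB2, mtTFB1, mTTF and mTerf3. They are 10 of the 13968 protein-coding genes on the chromosome arms, and all 10 were matched by their current symbol. The group was chosen by measured values, because the mtSSB promoter holds the strongest nuclear peak of the experiment, so the signal of mtSSB is given as a description and supports nothing. The other genes were taken from the same biological process. A peak was assigned to a gene when its summit, the deposited position of highest enrichment, lay within 500 bp of the gene's transcription start site (TSS).

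The experiment was a chromatin immunoprecipitation with sequencing (ChIP-seq) in whole embryos of 6 to 24 h of the strain CG13287-GFP. These embryos carried a transgene for CG13287 fused to eGFP, and the antibody recognised GFP. Chromatin had been sonicated to 200 to 800 bp. There were 2 biological replicates of 1 group, with no second genotype, stage or treatment, and no input or untagged control was analysed here. The promoter that drives the fusion protein is not given in the sources used here, and the stage was taken from the labels' source line, since their age entry is too large to be one. Whole embryos mix all cell types, so strong binding in few cells and weak binding in many cannot be told apart.

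Mitochondria keep a small circular genome whose replication depends entirely on nuclear genes. A dedicated DNA polymerase with a catalytic and an accessory subunit works behind a helicase, while a single-stranded DNA-binding protein covers the displaced strand. TFAM packages the DNA into nucleoids and, with a phage-type RNA polymerase and its initiation factor, starts transcription, and proteins of the MTERF family act in termination and later steps. In Drosophila the promoters of mtSSB and PolG2 have been linked to the factor DREF, which binds the DNA replication-related element TATCGATA.

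The sequences shown here lie upstream of the TSS of 4 of the genes. They were read from the Release 6 genome (dm6) and are printed 5' to 3' on the strand of the gene, ending at the base before the TSS. Capitals mark ATCGAT (the core of the DREF element), CAGCTG (a palindromic E-box) or GGTCACAC (the core of the element bound by the factor M1BP) on either strand. The PolG2 stretch (chr2L:13833106-13833336, minus strand) fills the gap to the divergent gene Polr2C. The PolG1 stretch (chr2L:13827773-13827940, minus strand) belongs to the gene whose replicates differed most. The mTTF stretch (chr2L:14348791-14349019, minus strand) holds an E-box near the summit, and the mtTFB1 stretch (chr3L:11708748-11708978, plus strand) holds the single GGTCACAC found within 50 bp of a summit.
PolG2: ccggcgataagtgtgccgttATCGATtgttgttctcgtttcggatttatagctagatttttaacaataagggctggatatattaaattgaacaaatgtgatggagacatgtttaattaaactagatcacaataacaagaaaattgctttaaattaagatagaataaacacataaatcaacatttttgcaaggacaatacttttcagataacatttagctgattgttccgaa
PolG1: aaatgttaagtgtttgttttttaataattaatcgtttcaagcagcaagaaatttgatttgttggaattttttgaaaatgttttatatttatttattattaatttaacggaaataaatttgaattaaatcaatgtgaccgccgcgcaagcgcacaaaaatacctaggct
mTTF: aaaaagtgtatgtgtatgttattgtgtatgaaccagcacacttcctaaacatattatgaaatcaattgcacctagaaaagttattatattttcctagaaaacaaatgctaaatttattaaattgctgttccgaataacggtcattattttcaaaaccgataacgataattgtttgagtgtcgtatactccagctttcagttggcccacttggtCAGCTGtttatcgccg
mtTFB1: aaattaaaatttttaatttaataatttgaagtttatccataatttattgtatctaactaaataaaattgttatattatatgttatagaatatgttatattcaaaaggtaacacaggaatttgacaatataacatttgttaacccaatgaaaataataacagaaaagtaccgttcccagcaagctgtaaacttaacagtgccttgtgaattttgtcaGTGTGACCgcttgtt

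For mtDNA-helicase and mtTFB2 a window of 30 bases around the summit is shown, because these were the promoters with a whole TATCGATA there, in capitals. The mtDNA-helicase window is chr2L:9893418-9893447 on the minus strand and includes the TSS. The mtTFB2 window is chr3R:10045526-10045555 on the plus strand and lies upstream of the TSS.
mtDNA-helicase: ctcactttcgaTATCGATAacatggaaaat
mtTFB2: gttcgttatgcTATCGATAagttattgggt

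The files held peaks without reads or counts, and sequencing depth is therefore unknown for both replicates. The conservative list of both replicates held 5955 peaks with a median signal of 178, the optimal list 7026 peaks on the arms, replicate 1 alone 3997 and replicate 2 alone 7340. These lists had been filtered by the irreproducible discovery rate (IDR) at 0.01, and 4 ranked lists held the peaks before that filter. Signal is the deposited peak value, and ranks were taken among peaks on the arms, with 1 as the strongest. Pooled signals ran close to the sum of the replicates, with a median ratio of 0.995 over 7647 genes and 0.864 to 1.05 over the 10 genes, so pooled and single signals were not set against each other.

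Most of the 10 promoters were occupied. In the conservative list 8 of 10 had a peak, beside 39.8% of all protein-coding genes, and PolG1 and mTerf3 had none. The optimal list had 9 of 10 beside 43.7%, with PolG1 and mTerf3 gained and mtTFB1 lost. Replicate 1 had 6 of 10 beside 30.3% and lacked PolG1, PolrMT, mtTFB1 and mTerf3. Replicate 2 had 9 of 10 beside 44.9% and lacked mtTFB1. In all 4 ranked lists each of the 10 genes had a peak, where the share of all genes was 60.7% in the conservative, 62.8% in the optimal, 58.0% in the replicate 1 and 66.1% in the replicate 2 ranked list. The count in the conservative list was also 8 within 200 bp of the TSS (35.0% of all genes), within 1000 bp (42.7%), with the 5'-most TSS alone (37.8%), and when any base of the peak within 500 bp was enough (41.3%). Peaks above the median signal of the list were found at 6 of the 10, beside 26.5% of all genes. These shares are a description, since the group was assembled around its strongest member.

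Apart from mtSSB and PolG2, the occupied promoters had signals near or below the median of bound genes. The 8 signals of the conservative list ran from 94.2 to 2999.7 with a median of 233.4, while the 5565 bound genes had a median of 254.7 and quartiles of 153 and 513. Of the 8 genes, 3 lay above the median of bound genes, namely mtSSB, PolG2 and mTTF.

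**Figure D1:**
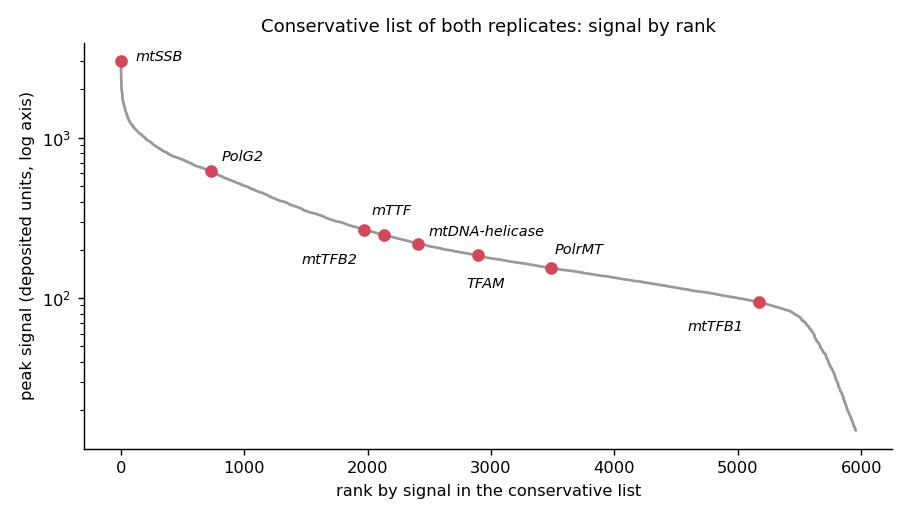
Peak signal (log axis, deposited units) against rank in the conservative list, with the 5955 peaks as a line and the 8 bound genes as labelled points. mtSSB sits at rank 1, PolG2 at rank 729, and the other 6 genes between ranks 1975 and 5174.

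Among the replication genes, mtSSB encodes the protein that covers single-stranded mitochondrial DNA. Its signal was 1503.33 in replicate 1 and 1489.29 in replicate 2, and each value was the highest on the chromosome arms in its list. The pooled signal was 2999.73, 1.09 times that of the next peak. In replicate 1 the lead over the second peak was 1.14-fold and in replicate 2 it was 1.02-fold. The peak spanned 656 bp (3R, 16204991 to 16205646), with its summit 43 bp upstream of the TSS. The median width in the list was 514 bp, but a width of exactly 550 bp recurs there, as at PolrMT and mtTFB1. Whether a set window enters that median was not tested. The summits of the single libraries lay 52 bp upstream of the TSS in replicate 1 and 42 bp upstream in replicate 2. It covered the TSS of no other gene.

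PolG2, the accessory subunit of the mitochondrial DNA polymerase, came second in the group. Its signal was 234.0 in replicate 1 and 379.1 in replicate 2, and the pooled peak (615.8, 2L, 13833028 to 13833458) ranked 729 of 5955. PolG1, the catalytic subunit, was far lower and differed between the libraries. Its signal was 16.57 in replicate 1, where the peak stayed in the ranked list with a scaled IDR score of 221 (filtered peaks start at 830), and 96.58 in replicate 2, where the peak passed the filter. The replicate 2 value was 5.83 times that of replicate 1, a ratio above those of 99.5% of the 7697 genes with a ranked peak in both. In the optimal list the PolG1 peak (108.5, 2L, 13827521 to 13828070) ranked 5060 of 7026, and in the conservative ranked list its score was 153.

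The mtDNA-helicase gene, which encodes the replicative helicase, had signals of 95.24 and 137.4 in replicates 1 and 2. Its pooled peak (219.0, 2L, 9893338 to 9893565) ranked 2406, and the summits of both replicates lay within 2 bp of each other, 11 and 9 bp downstream of the TSS. The 4 replication genes thus ran from the top of the list to a peak found by the filter in 1 replicate.

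Among the packaging and transcription genes, TFAM, the histone-like packaging and initiation factor, had signals of 73.73 and 106.9 in replicates 1 and 2. The pooled peak (184.4, 3R, 20576940 to 20577105) ranked 2892 with its summit 5 bp downstream of the TSS, and the replicate summits were 4 bp apart. A weaker peak of 45.3 lay 198 bp upstream in the optimal list, and its interval (3R, 20576933 to 20577482) contains that of the main peak. PolrMT, the mitochondrial RNA polymerase, had a pair of peaks in the conservative list, 154.0 at 163 bp downstream of the TSS (rank 3489) and 108.07 at 46 bp upstream (rank 4758). Their intervals overlap (2L, 1107935 to 1108484 and 1108144 to 1108693). Whether such overlapping peaks are separate sites was not tested. The stronger of the pair was not the same in both libraries. In replicate 1 the upstream peak had 48.47 and the downstream peak 44.07, and both were in the ranked list alone. In replicate 2 the downstream peak had 99.86 and passed the filter, while the upstream peak had 76.51 and did not.

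mtTFB2, the initiation factor of the polymerase, had signals of 108.0 and 145.4 in replicates 1 and 2, and its pooled peak (247.7, 3R, 10045440 to 10045589) ranked 2136. The summit lay 35 bp upstream in replicate 1 and 8 bp downstream in replicate 2. A further peak of 121.0 stood 167 bp downstream in the optimal list, with an interval (3R, 10045466 to 10046015) that overlaps the main one. Its paralogue mtTFB1, which methylates the small mitochondrial ribosomal RNA, had the lowest signal of the group, 94.15 (3L, 11708659 to 11709208, rank 5174). Its ranked signals were 39.65 in replicate 1 and 67.60 in replicate 2, and neither passed the filter. The scaled IDR score was 996 in the conservative ranked list and 774 in the optimal one. A second peak of 18.78 lay 155 bp downstream, and its interval (3L, 11708859 to 11709408) overlaps the main one.

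At mtTFB1 further peaks lay beyond the distance limit. A peak of 146.47 in the conservative list lay 817 bp upstream of its TSS, with 48.77 in replicate 1 and 109.7 in replicate 2. Just outside the limit there was a ranked peak of 73.83 at 531 bp upstream, and a filtered peak of 34.24 at 558 bp upstream in replicate 1. The gene CG11658 starts 426 bp from the mtTFB1 TSS on the other strand. All of these summits lay beyond that start, within 500 bp of it and nearer to it than to mtTFB1. By the rule used here they are promoter peaks of CG11658 and not of mtTFB1. Among the strongest peaks of each gene, the summit farthest from its TSS was that of mTerf3 in replicate 1, 319 bp upstream. Of the weaker ranked peaks, one of PolG2 lay 363 bp upstream with a signal of 44.85.

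For the termination genes, mTTF, the Drosophila transcription termination factor, had signals of 98.38 and 157.8 in replicates 1 and 2. Its pooled peak (267.7, 2L, 14348689 to 14348962) ranked 1975, below mtSSB and PolG2 alone within the group. mTerf3, another MTERF family member, had no conservative peak, and in the optimal list its peak (112.5, 3L, 20520617 to 20521166) ranked 4890 of 7026. Replicate 2 had 107.2 at 101 bp upstream, in the filtered list. Replicate 1 had 23.01 at 319 bp upstream, in the ranked list alone. Replicate 2 also held a ranked peak of 21.16 at 307 bp upstream, so the strongest peaks of the replicates were not at the same place, and the ratio of 4.66 between them sets different peaks side by side.

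**Figure D2:**
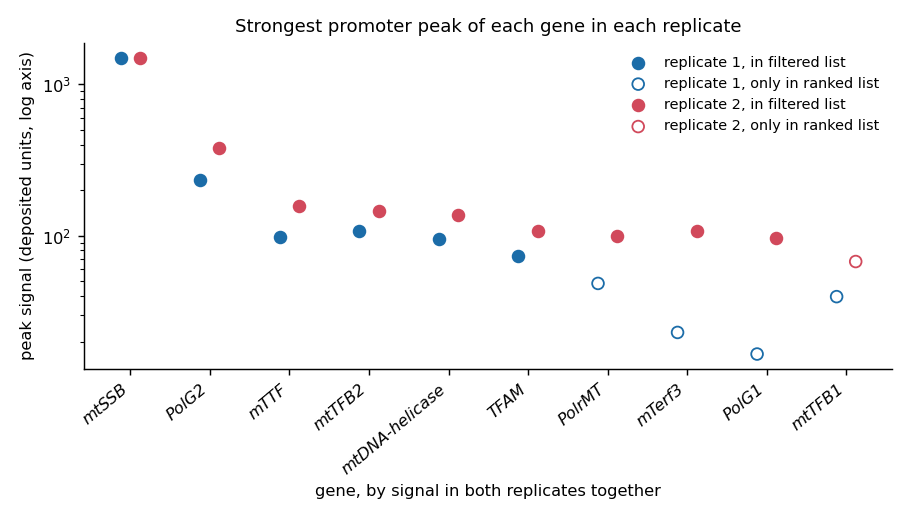
Signal (log axis, deposited units) of the strongest promoter peak of each gene in replicate 1 and replicate 2, with filled points for filtered peaks and open points for peaks in the ranked list alone. The replicates nearly coincide at mtSSB (1503.33 and 1489.29) and stand farthest apart at PolG1 (16.57 and 96.58).

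By pooled signal the order was mtSSB, PolG2, mTTF, mtTFB2, mtDNA-helicase, TFAM, PolrMT, mTerf3, PolG1 and mtTFB1. Of the 9 pairs of neighbours in this order, 6 kept it in both replicates. The pairs mTTF and mtTFB2, PolrMT and mTerf3, and PolG1 and mtTFB1 changed order in 1 replicate each, so their levels did not differ beyond the spread between the libraries.

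Signals of the strongest peak were higher in replicate 2 for 9 of the 10 genes. At PolrMT and mTerf3 that peak was a different one in each replicate, so their ratios do not compare the same peak. At mTerf3 replicate 1 had 23.01 at 319 bp upstream, where replicate 2 had 21.16 at 307 bp upstream. Over the 7697 genes with a ranked peak in both, replicate 2 was a median of 1.58 times replicate 1 (quartiles 1.26 and 2.10), and 6 of the 10 lay above that median. The exception was mtSSB, with a ratio of 0.991 that lay above only 8.08% of genes. Those genes were not matched to mtSSB in signal, so the low ratio is not shown to be particular to it. The 5th and 95th percentiles over genes were 0.906 and 3.37, so the ratios of PolG1 and mTerf3 fell outside that range and that of mtSSB within it. Whether library depth moves these ratios was not tested, as the lists do not give it.

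**Figure D3:**
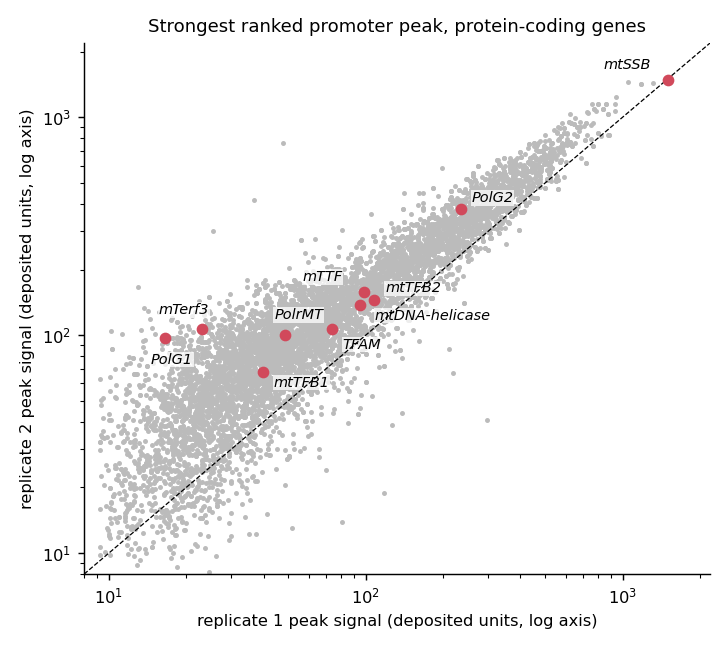
Signal of the strongest ranked promoter peak in replicate 2 against replicate 1 (both log axes, deposited units) for 7697 protein-coding genes in grey and the 10 genes in red, with a dashed line of equality. mtSSB lies at the upper end on the line, and PolG1 and mTerf3 lie above the cloud's centre with ratios of 5.83 and 4.66 (for mTerf3 from different peaks).

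Summits lay close to the TSS. In the conservative list the 8 summits ran from 160 bp upstream at PolG2 to 163 bp downstream at PolrMT, with a median of 34 bp upstream, against 60 bp upstream over all bound genes. Upstream summits were found at 5 of 8, while 80.2% of bound genes had one. Those of mtDNA-helicase, TFAM and PolrMT were downstream. The replicate summits were a median of 30.5 bp apart over the 10 genes and 31 bp over all genes. Wide gaps were at mTerf3 (218 bp) and PolrMT (187 bp), where the strongest deposited peak was a different one with an overlapping interval. The next gap was 62 bp, at mTTF, whose summit lay 7 bp downstream in replicate 1 and 55 bp upstream in replicate 2.

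**Figure D4:**
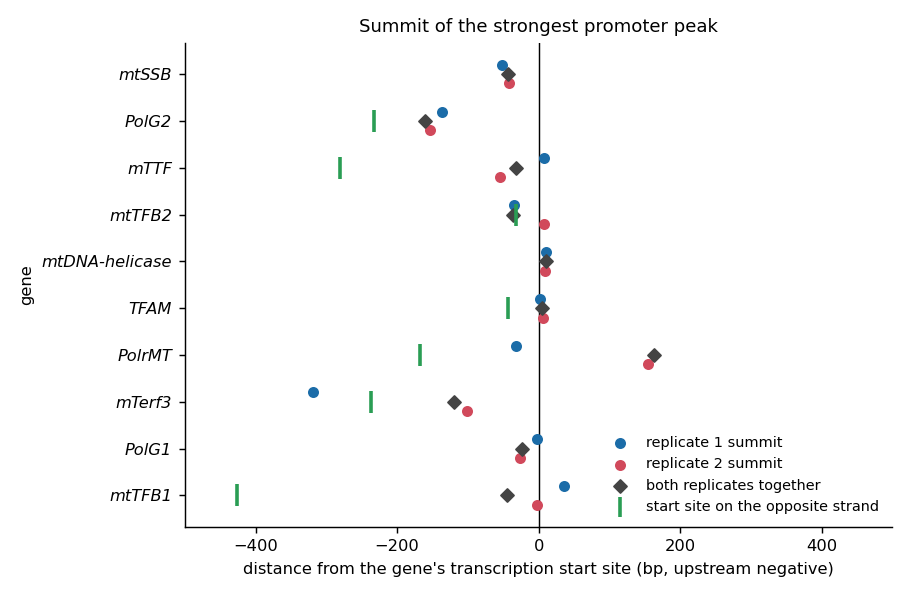
Distance in bp of the strongest promoter peak's summit from the TSS of each gene (upstream negative) in both replicates together and in each replicate, with a green tick at any start site on the opposite strand. Replicate summits of mtDNA-helicase lie 2 bp apart and those of mTerf3 218 bp apart.

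The promoters were compact. Each of the 10 genes had 1 annotated TSS, as had 73.5% of protein-coding genes and 63.6% of those bound. A TSS on the opposite strand lay within 500 bp at 7 of 10, beside 30.8% of all genes and 53.0% of bound genes. A summit with 1 gene alone was found at 3 of 10 (mtSSB, PolG1 and mtDNA-helicase), with optimal summits for PolG1 and mTerf3. Of the 5159 promoter summits of the conservative list, 61.6% had 1 gene. That share counts each summit once, whereas a count by gene enters a shared summit for each of its genes. The count and the share are therefore unlike in unit, and no contrast is drawn from them. Most of the peaks therefore cannot be given to the mitochondrial gene alone.

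At PolG2 the summit was nearer to Polr2C, a subunit of RNA polymerase II that starts 232 bp away on the other strand, at 72 bp from its TSS against 160 bp for PolG2. PolG2 also shares its TSS with GatC, a subunit of the mitochondrial glutamyl-tRNA amidotransferase. The pooled mtTFB2 summit lay 4 bp inside the start of CG11722, whose TSS is 32 bp away, and 36 bp from that of mtTFB2. In replicate 2 the summit lay 8 bp downstream of the mtTFB2 TSS, so that mtTFB2 was the nearer gene there. At TFAM the summit was 48 bp from the divergent CG5412, whose TSS is 43 bp away, so TFAM was the nearer gene. The mTerf3 summit of the optimal list was 117 bp from CG5104 and 120 bp from mTerf3, with 237 bp between the TSSs. In replicate 2 it was 101 bp upstream of mTerf3, the nearer gene there. In the ranked list of replicate 1 it was 319 bp upstream, nearer to CG5104. The nearer gene thus changed between the libraries at mtTFB2 and mTerf3.

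The PolrMT summit lay 330 bp from the TSS of CG14339 and 163 bp from its own. mtTFB1 shares its TSS with Ccdc56, an assembly factor of cytochrome c oxidase, and CG11658 starts 426 bp away on the other strand. At mTTF the second gene was a non-coding antisense RNA, asRNA:CR44850, whose TSS was 248 bp from the summit.

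Sequence at the summits varied across the group, taken at the conservative summits of 8 genes and the optimal summits of PolG1 and mTerf3. A whole TATCGATA lay within 50 bp of the summit at mtDNA-helicase and mtTFB2, 2 of 10, beside 11.6% of all conservative summits. In both cases its centre was 2.5 bp from the summit, as in the 30-base windows printed above, and at mtTFB2 the summit of replicate 2 was 43 bp from that of replicate 1. The shorter ATCGAT, which every TATCGATA contains, was found at 3 of 10 with mtSSB added, beside 24.1%. PolG2 had an ATCGAT 211 bp upstream of its TSS and 48.5 bp from the summit by its centre, so that it does not lie whole within the 50 bp.

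Counts for the other words depended on the window. CAGCTG lay within 50 bp at mtTFB2 and mTTF (2 of 10, beside 10.4%), with copies 53 and 75 bp upstream of the mtTFB2 TSS. GGTCACAC was found at mtTFB1 (1 of 10, beside 4.58%), TATAAA at PolG2 and mTerf3 (2 of 10, beside 11.99%), and GAGAGAG at none (beside 3.91%). TATAAA moved most with the window, from 0 of 10 within 25 bp (beside 5.83%) to 7 of 10 within 100 bp (beside 24.7%). In the 250 bp upstream of the TSS the counts were 1 for TATCGATA (7.99% of all genes), 3 for ATCGAT (20.8%), 4 for CAGCTG (13.4%), 2 for GGTCACAC (4.20%), 7 for TATAAA (43.0%) and 1 for GAGAGAG (5.36%). The CAGCTG genes were TFAM, PolrMT, mtTFB2 and mTTF. PolG1, TFAM and PolrMT held none of these words within 50 bp of the summit of their strongest peak. All searches covered both strands, and a match is a description of the letters.

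Base composition ranged widely. The 101 bp around the summit held 23.8% G and C at mtSSB, 29.7% at PolG2 and 18.8% at mTerf3, all below the first quartile of conservative summits (35.6%). PolrMT, at 54.5%, was above the third quartile (49.5%). The other 6 genes lay between 38.6% and 48.5%, around the median of 42.6%.

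The genes most like mtSSB in signal were found by the distance of log2 signals over the 2 replicates among 4137 genes with a filtered peak in both. Of those near it, Rpn6, a proteasome lid subunit, and ave, a regulator of Ras signalling, lay at a distance of 0.36 log2 units and share 1 peak, with signals of 1176.87 in replicate 1 and 1423.35 in replicate 2. This peak was stronger in replicate 2, and that of mtSSB was not. Neither gene belongs to the group, and the next group member, PolG2, ranked 729.

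A wider list of 26 genes of the mitochondrial nucleoid, nucleotide supply and RNA metabolism, with 3 regulators, placed the group among its partners. In the conservative list 20 of 26 were bound, beside the 39.8% of all genes, with signals from 137 to 942 and a median of 329. Of the 20, 15 were above the median of bound genes, 254.7, which was the case for 3 of the 8 bound genes of the core group. Counts were 23 in the optimal list (beside 43.7% of all genes), 17 in replicate 1 (30.3%) and 24 in replicate 2 (44.9%). At 13 of the 20 the TSS of another gene also lay within 500 bp of the summit. The share of bound genes with such a summit was not counted, so this is a description alone. Among the 13 were bor, RnrS, dNK, mldr, mTerf5, bsf, SLIRP2, ewg and Dref. Their peaks cannot be given to the listed gene alone.

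All 8 genes for replication, repair and nucleoid upkeep were bound in the conservative list, beside 39.8% of all genes. Replicate 1 had 7 of the 8, beside 30.3%, with rnh1 in its ranked list alone. Replicate 2 had all 8, beside 44.9%. The highest were Phb1, a prohibitin of the inner membrane, at 650 (297 and 348 in replicates 1 and 2), bor, the AAA-family ATAD3 homologue, at 604 (302 and 299.9), and Top3alpha, a topoisomerase of nucleus and mitochondria, at 460 (188 and 271). For deoxynucleotide supply 2 of 4 were bound, near the share of all genes (39.8%). They were RnrS, the small subunit of ribonucleotide reductase, at 344 and the deoxynucleoside kinase gene dNK at 175. Not bound were RnrL, the large subunit, with 47.7 in the filtered list of replicate 2, and Rim2, a pyrimidine nucleotide carrier, with 131 in the optimal list.

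In RNA processing, stability and decay 7 of 11 were bound, beside 39.8% of all genes. mTerf5, a partner of mTTF at the same sites in Drosophila, had 811 (346 and 463 in replicates 1 and 2), so that its pooled signal was above those of mTTF and mTerf3. bsf, a pentatricopeptide protein that stabilises mitochondrial messages, had 781 (284 and 481), and SLIRP2, of the SLIRP family of RNA-binding proteins, had 596 (230.1 and 369). The RNase P subunits rswl and scu were not bound and had 93.9 and 53.5 in the optimal list. Suv3, the RNA helicase of the degradosome, had 54.1 in the filtered list of replicate 2, and SLIRP1 was in no filtered list, with 50.96 in the conservative ranked list. All 3 regulators were bound, beside the same 39.8%. They were ewg, the homologue of nuclear respiratory factor NRF-1, at 942, Dref at 482 and srl, the fly PGC-1 homologue, at 160. The srl peak was in the filtered list of replicate 2 and not in that of replicate 1.

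**Figure D5:**
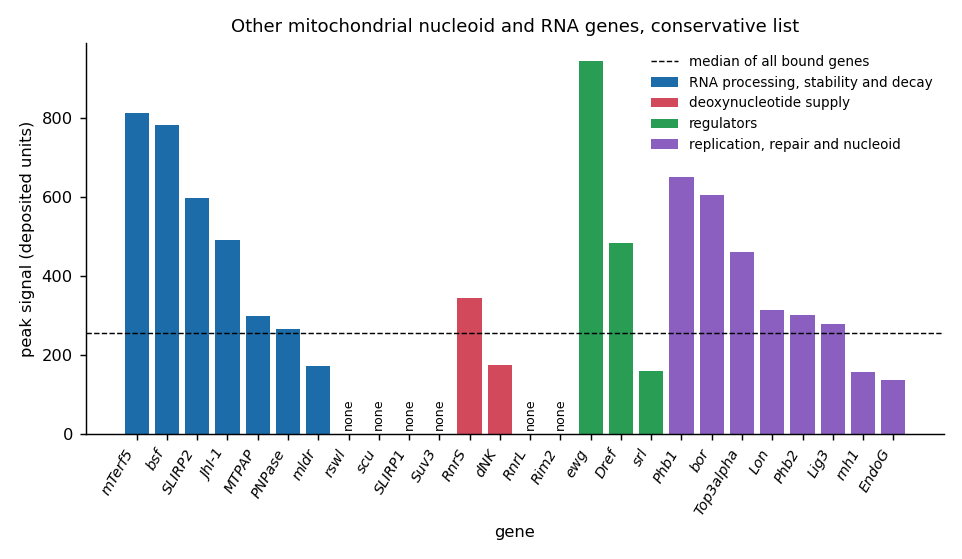
Signal (deposited units) of the strongest promoter peak in the conservative list for the 26 genes of the wider list, regulators included, coloured by role. A dashed line stands at the median of all bound genes (254.7). Bars run from 137 to 942 for 20 genes, and the 6 genes without a bar had no peak.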

How the data were processed

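ChIP-seq peaks of both replicates were taken from lists on dm6. Per the labels' listing, the lists derive from filtered alignments of 1 or both replicates; which aligner, peak caller and control scaling were used is not given in the sources used here. Each peak carries a deposited signal, the caller's own value with no stated relation to depth. Each also has a deposited score, which scales the IDR up to 1000, and ranked lists add a second deposited score, minus log10 of the IDR. Of the value columns, 16 that name no sample were not used.

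Peaks on the mitochondrial genome and unplaced sequence were left out of ranks. TSSs came from the Ensembl BDGP6.54 annotation (release 115) without transposable elements, and sequences from the Release 6 genome. Python 3.11.15, pandas 2.3.3, numpy 2.4.6 and matplotlib 3.10.9 were used, and the scripts were tested on simulated peaks. With 1 group and peak lists, no p value was computed, and the 2 replicates show the spread.

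Named genes were all 10 members, every gene with a TSS within 500 bp of a member's summit, the 3 highest bound genes of each sub-list and every unbound gene of the wider list, and the 3 genes closest to mtSSB in log2 signal, of which 1 is not reported here. Members and lists were chosen with earlier results of these data known. Of the wider list, 3 genes were matched by synonym. Alternatives were the optimal list, each replicate's list, peaks above the median signal, TSS distances of 200 and 1000 bp, any overlap of the interval, the 5' TSS alone, and motif windows of 25 and 100 bp.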

Additional observations from a re-analysis of the deposited data

Results flagged for a closer look

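Filtered peaks on the mitochondrial genome, which the comparisons above leave out, numbered 17 in replicate 1 and 5 in the optimal list of both replicates. Replicate 2 and the conservative list had none there. The signals of the replicate 1 peaks ran from 1082 to 20125, while the highest signal on the chromosome arms in that replicate was 1503.33, at mtSSB. The 5 optimal peaks ran from 5226 to 19876. They were picked out because they are a signal in data outside the main measurement, with no control sample here to compare them with, and their origin was not tested.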

How the results depend on the processing

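Counts of bound genes and of TATCGATA stayed within 1.5 times of the main value under the alternatives run for them. Bound members numbered 6 to 9 and bound genes of the wider list 15 to 24, and the lowest counts in both came from peaks above the median signal, shared for the members with replicate 1 alone. With 1 replicate left out the members numbered 6 to 9 and the wider list 17 to 24. The share of all genes ran from 26.5% (peaks above the median signal) to 44.9% (replicate 2 alone) over these settings. TATCGATA near the summit stayed at 2 with 25 and 100 bp and was 3 with ATCGAT. Windows of 25 and 100 bp gave 0 and 7 for TATAAA (2 at 50 bp), 0 and 1 for GGTCACAC (1), 0 and 1 for GAGAGAG (0), 2 and 4 for ATCGAT (3), and 2 and 3 for CAGCTG (2). Among genes with a filtered peak in the list concerned, the side of the TSS turned at 2. With 1 replicate left out, the mtTFB2 summit ran from -35 (without replicate 2) to 8 bp (without replicate 1) in place of -36 bp. That of mTTF ran from -55 (without replicate 1) to 7 bp (without replicate 2) in place of -32 bp. The cause was not tested. No paired analysis was possible because the series has 1 group and no test was made. Among filtered peaks, percentile ranks moved by at most 19.8 points and summits by at most 44 bp. In the ranked list of replicate 1 the strongest summit also changed side at PolrMT (-32 against 163 bp) and mtTFB1 (36 against -45 bp). Depth is unknown, so a missing peak was not detectable in these lists and is not shown to be absent.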
